A study of Mus musculus with 2 samples.

Results

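The genes described here encode the machinery that attaches the small protein ISG15 to other proteins, together with interferon-induced enzymes of ADP-ribosylation. They were chosen by name, as the 10 genes Isg15, Uba7, Ube2l6, Herc6, Trim25, Rnf213, Usp18, Parp9, Dtx3l and Parp14, from the 44291 genes measured, and each had 1 entry. RNA-seq was performed on primary wild-type mouse fibro-adipogenic progenitors (FAPs), stromal cells of muscle with the capacity to become fat cells, sorted by flow cytometry from digested hind limb muscle. One group received platelet-rich plasma (PRP) and the other vehicle (control), and adipogenesis was then induced in both. The induction medium was DMEM that held insulin at 10 μg/ml, dexamethasone at 0.25 μM, IBMX at 0.5 mM and FBS at 20%. The sample labels give the treatment as PRP, while the study's text on this transcriptome speaks of exosomes isolated from human PRP. How long the cells were treated and induced before sequencing, and how many mice they came from, is not given in the sources used here.

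There was 1 library per group and no replicate, so each difference below is one between 2 libraries, no p-value is given, and the treatment cannot be told apart from culture and library effects. The values are FPKM, that is reads scaled to exon length and to the total of reads assigned to genes. Levels of different genes can be compared only as far as the exon length fits the transcripts present, which was not checked. Assigned reads numbered 40120843 after PRP and 34139741 in the control. Each ratio of PRP over control is given with an exact Clopper-Pearson 95% interval computed from read pairs, which covers counting error only and takes no account of duplicate reads. The log2 fold change is log2(PRP FPKM + 1) minus log2(control FPKM + 1), which makes changes of weakly expressed genes look smaller, and was summarised over the 13401 genes whose mean FPKM reached 1.

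ISG15 is a ubiquitin-like protein that cells make in response to type I interferon and join to target proteins through a chain of enzymes. UBA7 is the activating enzyme (E1), UBE2L6 the conjugating enzyme (E2) and HERC6 the main ligase (E3) in the mouse, while USP18 takes ISG15 off again and also dampens signaling at the interferon receptor IFNAR2. A second interferon-induced group modifies proteins with ADP-ribose: PARP9 works in a complex with the ubiquitin ligase DTX3L, and PARP14 transfers single ADP-ribose units. Interferon turns such genes on through transcription factors, IRF9 among them, that bind a DNA element called the interferon-stimulated response element (ISRE).

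Because the ISRE is the best-known entry point of interferon into these genes, the promoter windows of RefSeq (GRCm38.p6, from 250 bases before to 50 bases after a gene's start) were searched for its core, GAAA followed by any 2 bases and GAAA again, on both strands. Windows were at hand for 7 of the 10 genes, and those of Usp18, Parp9 and Parp14 were not analysed here. An exact core stood in 1 of the 7 windows, that of Isg15, and in 3.44% of all 32851 windows. The Isg15 window held 3 overlapping copies in a row, between 78 and 57 bases before the start, and 5 windows of all (0.0152%) held 3 or more. With 1 mismatch allowed, the core was found in 5 of the 7 windows and in 35.4% of all windows, so that such matches are common. The sequences below show the stretch of 30 bases around the exact copies of Isg15 and, for comparison, around the matches before the RefSeq start of Herc6, Uba7 and Trim25. That start lies 62 bases (Uba7) and 27 bases (Trim25) inside the gene as GENCODE M21, the annotation used below, draws it, so that the Uba7 stretch and most of the Trim25 stretch fall within the gene coordinates given there. They are printed on the strand of the gene, where capitals mark the matched stretch in either orientation and a mismatched base stays in lower case.
Isg15 (chr4:156200871-156200900, minus strand): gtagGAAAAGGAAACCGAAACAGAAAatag
Herc6 (chr6:57580785-57580814, plus strand): atggagatacTTTCTTcTTCcctgtcttct
Uba7 (chr9:107975533-107975562, plus strand): agtctagTTTCACTTTtGGTTTCctgaaat
Trim25 (chr11:88999373-88999402, plus strand): cccagggcgccgcccctcctgTTCAGTTTC
These matches are descriptions of letters, and binding was not measured.

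To learn how PRP-treated FAPs differed from control FAPs in this machinery, the level of each gene was compared. Isg15 and Usp18 were higher in the PRP library by 4.46-fold and 3.56-fold. Another 7 genes were higher by 1.28-fold to 1.68-fold, and Uba7 was low in both libraries, with a ratio of 0.908 whose interval included no change. Summed over the 9 genes whose mean FPKM reached 1, the level was 277.6 FPKM after PRP and 104.1 FPKM in the control, and Isg15 made up most of the difference. Without Isg15 and Usp18 the sums of the remaining 7 genes were 89.6 and 60.4 FPKM. In bulk RNA, more cells with high levels and more RNA per cell cannot be told apart.

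**Figure D1:**
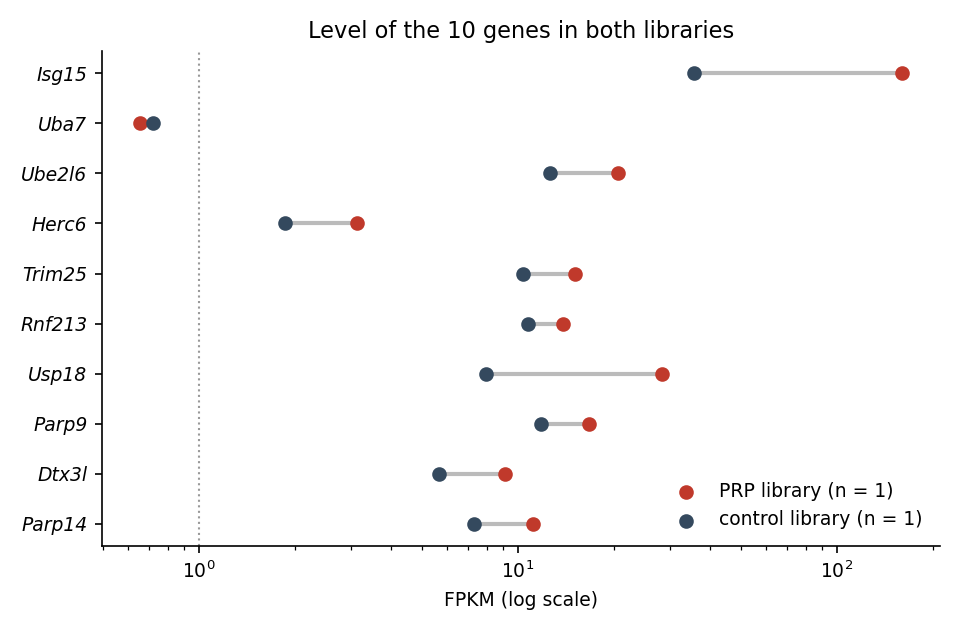
FPKM (log axis) of the 10 genes in the PRP library (red) and the control library (dark blue), 1 library each, with a grey line joining both values and a dotted line at an FPKM of 1. Red lies to the right of dark blue for every gene but Uba7, which sits below 1 FPKM in both libraries, and the widest gaps are those of Isg15 (35.7 to 159.6 FPKM) and Usp18 (7.96 to 28.4 FPKM).

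The modifier itself was the most abundant of the 10 genes. Isg15 (ENSMUSG00000035692, chromosome 4, 156199424 to 156200818, minus strand, 2 exons) had 159.6 FPKM after PRP and 35.7 FPKM in the control. It stood at rank 332 of all genes by level after PRP and at rank 1502 in the control. This gave a ratio of 4.46 (95% interval 4.02 to 4.96) and the log2 fold change 2.13, at rank 16 of the 13401 genes tested. The exon length of 756 bases in the annotation used here did not give whole reads for Isg15, whereas 703 bases gave 4501 and 858 reads and 1406 bases gave 9002 and 1716 reads. The intervals for Isg15 rest on the former. The latter would narrow that of the ratio to 4.15 to 4.81.

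The gene of the E1 enzyme of the same pathway had a low level, under 1 FPKM in both libraries. Uba7 (ENSMUSG00000032596, chromosome 9, 107975505 to 107984060, plus strand) had 0.656 FPKM after PRP and 0.722 FPKM in the control, from 176 and 165 reads. Its ratio of 0.908 had an interval of 0.668 to 1.25, so that a difference was not detectable at this depth, while the upper bound lies below the ratios of all 9 other genes. Uba7 was the only one of the 10 genes under a mean FPKM of 1 and has no part in the counts over tested genes.

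The enzymes that act after the E1 were higher in the PRP library. Ube2l6, the E2 (ENSMUSG00000027078, chromosome 2, 84798828 to 84810335, plus strand), had 20.6 FPKM after PRP and 12.7 FPKM in the control, a 1.62-fold ratio (interval 1.44 to 1.83). Herc6, the ligase (ENSMUSG00000029798, chromosome 6, 57581000 to 57664632, plus strand), had 3.14 against 1.87 FPKM, a ratio of 1.68 (1.46 to 1.94) from 1169 and 592 reads. After Uba7 it was the least abundant of the genes. Trim25, a ubiquitin ligase of the RIG-I pathway that can also act as a ligase for ISG15 (ENSMUSG00000000275, chromosome 11, 88999376 to 89020293, plus strand), had 15.1 against 10.4 FPKM, a ratio of 1.45 (1.34 to 1.57).

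USP18 and RNF213 act on ISG15 or on its conjugates from the other side. Usp18 (ENSMUSG00000030107, chromosome 6, 121245906 to 121270917, plus strand, 11 exons) had 28.4 FPKM after PRP and 7.96 FPKM in the control, from 3174 and 758 reads. This gave a ratio of 3.56 (95% interval 3.18 to 3.996) and the log2 fold change 1.71, at rank 53 of the genes tested. Rnf213, a very large ubiquitin ligase that has been described as a sensor of ISG15-modified proteins (ENSMUSG00000070327, chromosome 11, 119393100 to 119487418, plus strand, 68 exons), had 13.8 against 10.8 FPKM. Its ratio of 1.28 (1.23 to 1.34) was the smallest of the 9 genes with a higher value in the PRP library, and its 9365 and 6210 reads gave it the narrowest interval.

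The 3 genes of ADP-ribosylation lie close together on chromosome 16 and were all higher in the PRP library. Parp9 (ENSMUSG00000022906, 35938470 to 35972605, plus strand) had 16.7 FPKM after PRP and 11.8 FPKM in the control, a 1.42-fold ratio (interval 1.31 to 1.53). Its partner Dtx3l (ENSMUSG00000049502, 35926511 to 35939151, minus strand) had 9.10 against 5.65 FPKM, a ratio of 1.61 (1.45 to 1.79). Parp14 (ENSMUSG00000034422, 35832874 to 35871544, minus strand) had 11.2 against 7.28 FPKM, a ratio of 1.54 (1.43 to 1.65). Parp9 and Dtx3l start head to head, overlap by 682 bases on opposite strands and share 458 exon bases, which is 9.40% of the exon length of Parp9. Whether the counting used strand is not stated, so reads from the shared stretch are uncertain for both.

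**Figure D2:**
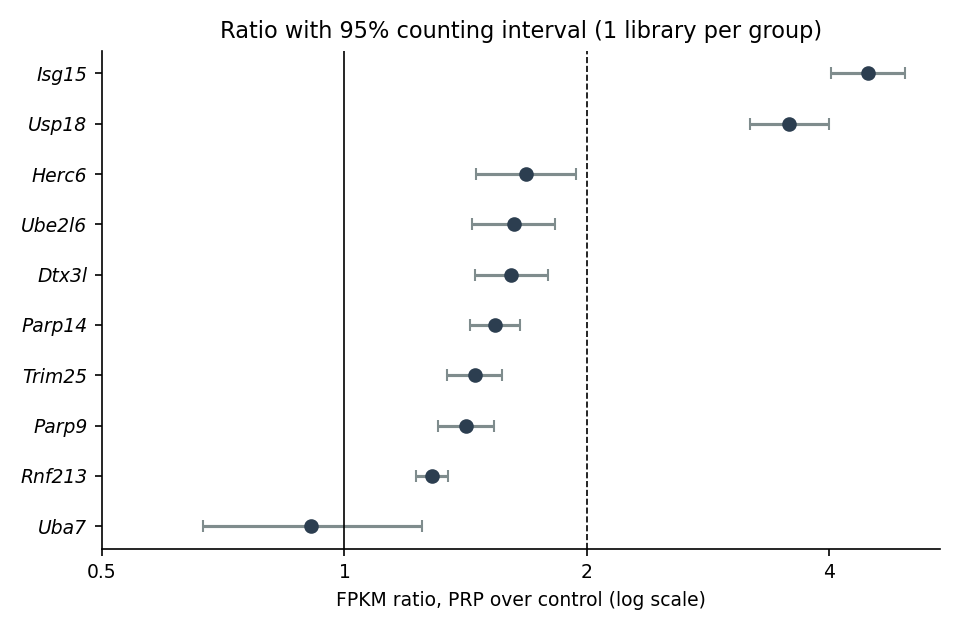
FPKM ratio of PRP over control (log axis) for the 10 genes, in order, with bars for the 95% Clopper-Pearson interval that covers counting error only. The solid line marks a ratio of 1 and the dashed line a ratio of 2. Isg15 and Usp18 lie beyond 2, the 7 genes from Herc6 to Rnf213 lie between 1.28 and 1.68, and the bar of Uba7 crosses 1.

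Neighbours in the order of ratios were compared through the relative change of one gene against the next, with an exact conditional interval from read pairs. Isg15 exceeded Usp18 by 1.25-fold (interval 1.07 to 1.46), and Usp18 exceeded Herc6 by 2.12-fold (1.77 to 2.55). From Herc6 through Ube2l6, Dtx3l, Parp14 and Trim25 to Parp9, each gene differed from the next by no more than counting error. Parp9 exceeded Rnf213 by 1.10-fold (1.01 to 1.21), and Rnf213 exceeded Uba7 by 1.41-fold (1.02 to 1.93). The spread between cultures is not known, so this order holds for these 2 libraries alone.

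The proportions within the pathway differed between the libraries. Isg15 had 243.4 times the level of Uba7 after PRP and 49.5 times in the control. Against the E2 gene Ube2l6 the level of Isg15 was 7.76 times after PRP and 2.82 times in the control, a 2.75-fold difference (interval 2.35 to 3.23). Against the ligase gene Herc6 it was 50.9 and 19.2 times. The modifier and the enzyme that removes it stayed closer, as Isg15 had 5.63 times the level of Usp18 after PRP and 4.49 times in the control. Within the ADP-ribosylation group, Parp9 had 1.84 times the level of Dtx3l after PRP and 2.09 times in the control, a difference within counting error (ratio 0.879, interval 0.770 to 1.003).

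The set was then read against all genes. Of the 13401 genes tested, 2.83% differed at least 2-fold on the log2(FPKM + 1) scale. As shares of all tested genes, 2.00% were higher and 0.828% lower after PRP. Of the 9 genes of the set that were tested, 2 were at least 2-fold higher, namely Isg15 and Usp18, and none was at least 2-fold lower. A log2 fold change above 0 was found for 50.9% of all genes tested and for all 9 of the set, while the untested Uba7 had -0.06. An interval of the ratio that lay above 1 was found for 26.2% of the 12370 tested genes with whole reads and for the same 9 genes. The median log2 fold change was 0.56 over the 9 genes tested and 0.01 over all genes, of which 95% lay between -0.74 and 0.89. Apart from Isg15 and Usp18, the tested genes of the set ranged from 0.33 to 0.66, within that span.

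**Figure D3:**
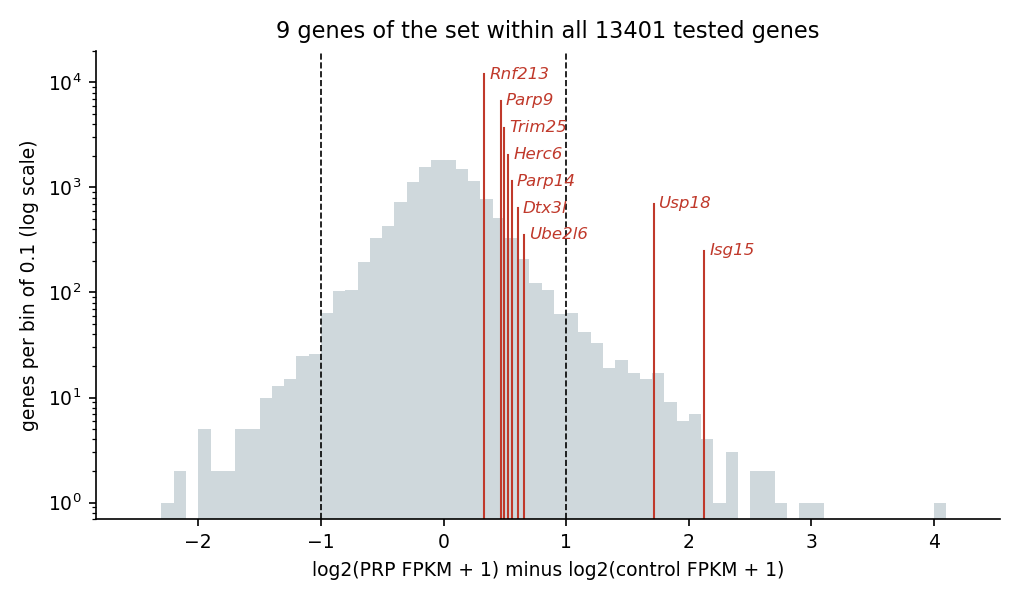
Histogram (log count axis) of the log2 fold change on the log2(FPKM + 1) scale over the 13401 tested genes, with red lines at the 9 genes of the set that are among them and dashed lines at a 2-fold change. From Rnf213 (0.33) to Ube2l6 (0.66), 7 genes lie on the right flank of the bulk of genes, and Usp18 (1.71) and Isg15 (2.13) lie in the right tail.

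Each gene was set beside its own family, to see where it lay among its relatives. Among 40 other genes of the ubiquitin-specific protease (USP) family none was at least 2-fold changed, their log2 fold changes ran from -0.35 to 0.40, and the median was -0.04, against 1.71 for Usp18. The USP genes with the largest changes were Usp39 (13.2 against 9.74 FPKM), Usp54 (3.22 against 2.29 FPKM) and Usp11 (1.13 against 1.73 FPKM). Among 29 other UBE2 conjugating enzymes none had a log2 fold change above that of Ube2l6 (0.66), and the median was -0.04. Here the largest change was that of Ube2r2, an E2 of cullin ligases, with 11.6 FPKM after PRP against 22.6 in the control (ratio 0.512, interval 0.473 to 0.555).

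For Uba7 the comparison looked different. All 9 other E1 enzymes had a higher level than Uba7, such as Uba1, the general E1 of ubiquitin, with 33.7 FPKM after PRP and 38.8 FPKM in the control. Their log2 fold changes ran from -0.26 to 0.22, so that Uba7, at -0.06, lay inside the range of its family, with 4 of the 9 above it. Among the 4 other HERC ligases the log2 fold change ran from -0.42 (Herc2) to 0.20 (Herc3), below that of Herc6 (0.53).

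Trim25 and Rnf213 were exceeded by relatives. Of 33 other TRIM proteins 5 had a larger log2 fold change than Trim25 (0.50), led by Trim30d (15.3 against 7.62 FPKM, ratio 2.01, interval 1.81 to 2.24), Trim34a (10.8 against 5.38 FPKM, 2.01, 1.72 to 2.34) and Trim30a (15.8 against 9.30 FPKM, 1.70, 1.55 to 1.88). These genes belong to a cluster of close copies whose reads may be assigned to the wrong copy, which leaves each value uncertain, and on the log2(FPKM + 1) scale none reached 2-fold. Of 54 other RNF ligases 8 had a larger log2 fold change than Rnf213 (0.33), among them Rnf149 (71.1 against 47.7 FPKM). The largest change in that family was lower in the PRP library, that of Rnf150 (1.33 against 2.91 FPKM).

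Among 13 other ADP-ribosyltransferases none had a log2 fold change above those of Parp9 (0.47) and Parp14 (0.56). The median of these 13 was 0.18, with 8 higher, 5 lower and none at least 2-fold changed. Tiparp, a target of the aryl hydrocarbon receptor, came closest, with 4.47 FPKM in the PRP library against 3.02 (ratio 1.48, interval 1.25 to 1.75). This order depends on the pseudocount. Without it, the ratio of Tiparp lay above that of Parp9 (1.42, interval 1.31 to 1.53), with overlapping intervals, and below that of Parp14 (1.54). Parp3, a DNA repair enzyme and the most abundant of the family, was lower, with 26.8 against 40.7 FPKM (0.657, 0.620 to 0.697), as was the tankyrase gene Tnks, with 3.90 against 5.61 FPKM. Of the other Deltex ligases, Dtx3 had 4.75 against 7.40 FPKM and Dtx4 had 8.11 against 6.60 FPKM.

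Isg15 has its relatives among the other ubiquitin-like modifiers. Of 15 such genes 1 was at least 2-fold changed, Ubd, which encodes the interferon- and TNF-inducible modifier FAT10 and had 4.18 FPKM after PRP against 1.38 in the control (ratio 3.02, interval 1.86 to 5.09). With 156 and 44 reads it was far less abundant than Isg15. The other 14 lay between -0.42 for Ufm1 (9.73 against 13.4 FPKM) and 0.31 for the ubiquitin gene Ubb (879.7 against 710.8 FPKM).

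**Figure D4:**
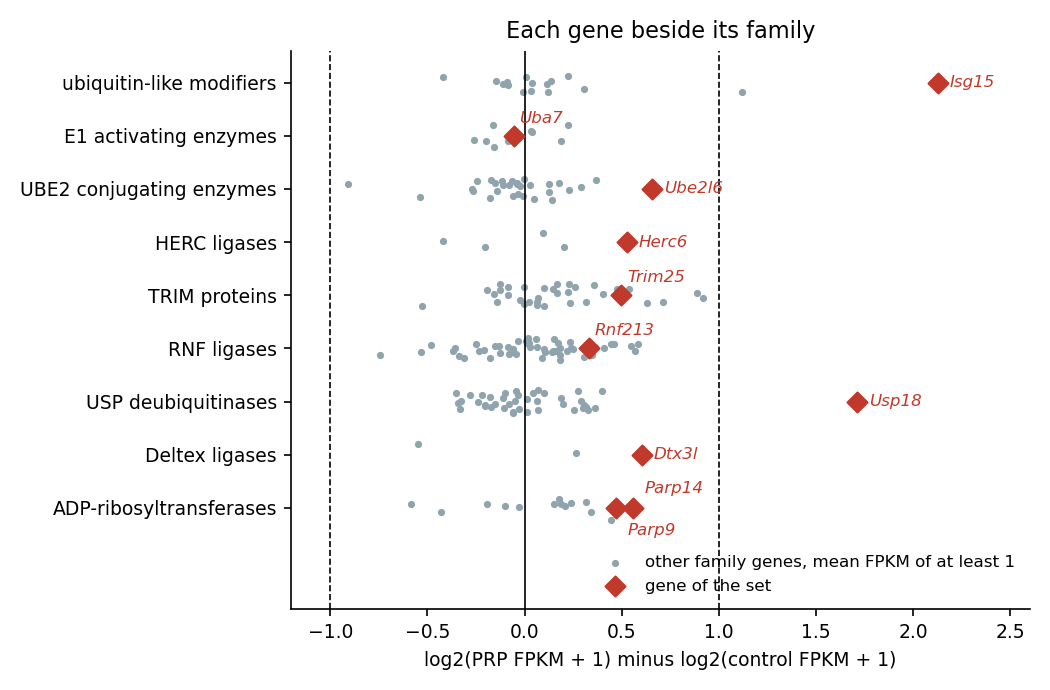
Log2 fold change on the log2(FPKM + 1) scale for the 10 genes (red diamonds) and for the other genes of each family whose mean FPKM reached 1 (grey points, spread vertically at random), with dashed lines at a 2-fold change. Isg15 and Usp18 stand to the right of every grey point of their families, Ube2l6, Herc6, Dtx3l, Parp9 and Parp14 lie at the right edge of theirs, and Uba7, Trim25 and Rnf213 lie among their relatives.

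The surrounding pathway was examined by lists of ligands, receptors, transducers and effectors. Of 6 interferon ligand genes in the files none reached a mean FPKM of 1. Ifnb1, the interferon that fibroblasts are known to make, had 6 reads after PRP and 2 in the control, and its interval of 0.205 to 134.01 allowed no statement, while Ifng was listed at 0 in both. Of 11 tested receptor and transducer genes none was at least 2-fold changed, and the median log2 fold change was 0.18. In all, 8 were higher and 3 lower, or 6 and 5 when rescaling left out mitochondrial and the most abundant genes. Ifnar2, the receptor chain that USP18 binds, had 13.1 FPKM in the PRP library against 11.4 (ratio 1.15, interval 1.03 to 1.27). Of the transducers, Stat2 (40.1 against 24.3 FPKM, 1.65, 1.57 to 1.73) and Irf9 (13.2 against 8.61 FPKM, 1.53, 1.40 to 1.67) had ratios inside the range of the 7 genes below Usp18.

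The antiviral effectors of the same response, the IFIT, OAS and MX genes among them, gave 11 tested genes, all higher in the PRP library and 7 at least 2-fold, with a median log2 fold change of 1.16. The 7 were Mx2, Ifit1, Ifit3b, Rsad2, Ifit3, Oasl1 and Bst2. Ifit1, which encodes an RNA-binding antiviral protein, had 25.3 against 6.53 FPKM (ratio 3.88, interval 3.42 to 4.42), and Rsad2, the gene of viperin, had 2.82 against 0.392 FPKM (7.20, 4.90 to 11.0). Ifit3 was the most abundant, with 274.2 against 109.5 FPKM (2.503, 2.405 to 2.605), although reads may be split between it and its close copy Ifit3b. Set beside them, Isg15 (2.13) and Usp18 (1.71) lay in the upper range of that list, which ran from 0.51 to 2.14, while Ube2l6, Dtx3l, Parp14 and Herc6 (0.53 to 0.66) lay between its 2 lowest genes, Oas2 (0.51) and Ifit2 (0.67), and Trim25, Parp9 and Rnf213 (0.33 to 0.50) below it. This order depends on the pseudocount. Without it, Oas2 had a ratio of 2.00 (interval 1.46 to 2.78), above those of Ube2l6, Dtx3l, Parp14 and Herc6, and Ifit2 had 1.62 (1.52 to 1.73). The ratios of Mx2 (6.49) and Rsad2 were larger than that of Isg15 (4.46). The effectors below a mean FPKM of 1, Mx1, Cmpk2, Oas3 and Oas1g, were also higher, with the largest ratio for Mx1 (25.6). With 1 library per group the difference between the lists was not tested. Enzymes that break down ADP-ribose, on proteins, as a polymer or in free form, gave 7 tested genes with log2 fold changes of 0.06 to 0.51 and none at least 2-fold changed. Among them were Nudt16 (1.64 against 0.859 FPKM), Nudt9, which cleaves free ADP-ribose (75.4 against 54.0 FPKM), and Parg, the main hydrolase of poly-ADP-ribose (9.17 against 7.48 FPKM). For comparison, 10 housekeeping genes had a median of 0.05, with a range from -0.54 (Sdha) to 0.39 (B2m, itself an interferon-responsive gene).

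Several genes of the set overlap other transcripts, whose values were compared with theirs. Gm44148, a long noncoding RNA on the strand opposite to Usp18 that shares 124 exon bases with it, had 71.7 FPKM after PRP and 20.4 FPKM in the control, a ratio of 3.52 beside 3.56 for Usp18. The annotated length of Gm44148 gave no whole reads, so the ratio has no interval. A930037H05Rik, on the strand opposite to Rnf213 with 1476 shared exon bases, had 8.30 against 5.31 FPKM, a 1.56-fold ratio (interval 1.43 to 1.70) that lay above the interval of Rnf213 itself (1.23 to 1.34). Gm15564, opposite to Parp9 and without shared exon bases, had 3.62 against 1.35 FPKM, a ratio of 2.69. On the same strand as Herc6, Gm45193 shares 1269 exon bases with it and had a ratio of 1.52 (1.22 to 1.88), and Gm49730 within Parp14 had a ratio of 1.47 (1.04 to 2.11). Without a stated strand setting, reads of a gene and of a transcript on its opposite strand cannot be told apart where they share exons.

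**Figure D5:**
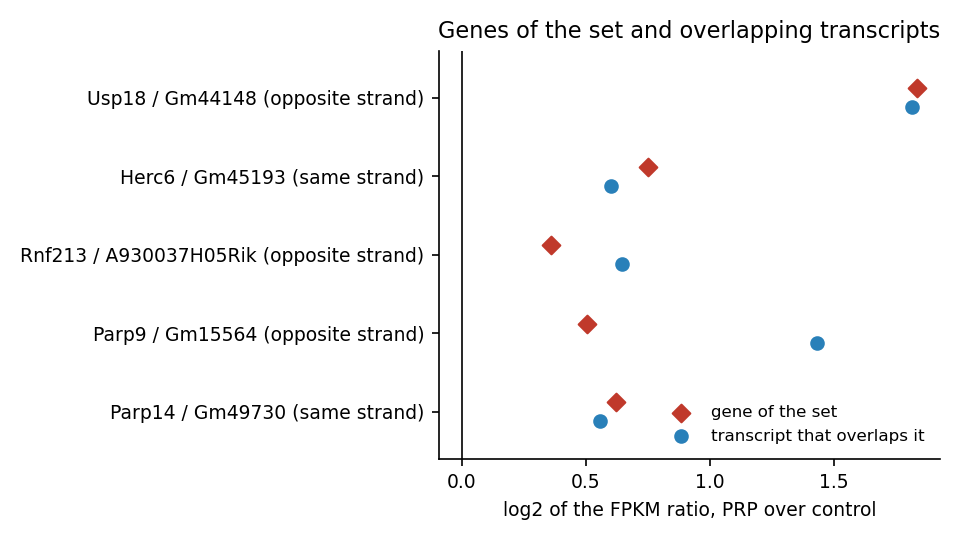
Log2 of the FPKM ratio of PRP over control, without a pseudocount, for 5 genes of the set (red diamonds) and for the overlapping transcript (blue points, mean FPKM of 1 or more), 1 library per group. All 10 points lie above 0. Those of Usp18 (1.83) and Gm44148 (1.81) nearly coincide, while Gm15564 (1.43) and A930037H05Rik (0.64) lie to the right of Parp9 (0.50) and Rnf213 (0.36).

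Genes next to the set on the chromosome were looked at in the same way, as the nearest tested gene on each side. These were 17 genes outside the set, including the 5 overlapping transcripts. Their log2 fold changes had a median of 0.37, with 11 higher and 6 lower, or 10 and 7 after rescaling. All 5 overlapping transcripts were higher (0.38 to 1.76), and all 6 lower genes were neighbours that do not overlap. Among the neighbours that do not overlap, as many were higher as lower without rescaling. Their middle values were -0.03 (Mir1932) and 0.01 (Pctp). The median of 0.37 and the excess of higher genes over the 17 therefore rest on the overlapping transcripts. Over all genes tested, 50.9% were higher and the median was 0.01. Of the neighbours that do not overlap, Agrn beside Isg15 had 2.09 against 1.35 FPKM (ratio 1.55, interval 1.30 to 1.83), whereas Mical3 beside Usp18 had 2.15 against 2.27 FPKM. Hspbap1 beside Parp14 had 1.81 against 1.17 FPKM (1.55, 1.30 to 1.86). Inka1, which lies on the opposite strand with its end 163 bases from the end of Uba7, was lower, with 13.3 against 17.0 FPKM (0.782, 0.668 to 0.916). Serping1, the complement inhibitor gene beside Ube2l6, also was lower (15.5 against 18.2 FPKM), and both neighbours of Trim25, Coil and Pctp, had intervals that included no change. The microRNA gene Mir7658 beside Isg15 had 3.06 FPKM after PRP and was listed at 0 in the control, a value too thin for a statement.

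Over the 2 libraries, the genes above a mean FPKM of 5 whose log2 fold change was closest to that of Isg15 (2.13) were Mx2 (2.14), an interferon-induced GTPase, and the small RNA genes Gm56278 (2.03) and Snord3b4 (2.01). Likeness here is the gap in a single difference on the log2(FPKM + 1) scale. Without the pseudocount the ratio of Mx2 (10.6 against 1.64 FPKM) was 6.49, against 4.46 for Isg15. The ratio of Mx2 has no interval.

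The cell identity of the libraries was checked with fixed markers. Of 10 FAP markers 9 reached a mean FPKM of 1, and all 9 were lower in the PRP library, with summed levels of 480.5 FPKM against 732.2 FPKM. Pdgfra, the defining FAP receptor, had 19.8 against 28.0 FPKM, and 1 of the 9 was at least 2-fold lower, the matrix gene Dpt, with 18.8 against 50.2 FPKM (ratio 0.374, interval 0.341 to 0.411). Of 10 leukocyte markers 2 reached that level, with summed levels of 12.8 FPKM after PRP and 11.2 FPKM in the control. The defining leukocyte gene Ptprc had 0.0109 and 0.0192 FPKM, and the macrophage gene Adgre1 had 4 and 6 reads. Other genes of the list were higher or lower after PRP, as Cd68, a lysosomal gene typical of macrophages, had 4.56 against 2.31 FPKM (ratio 1.98, interval 1.39 to 2.79) and Lyz2, the lysozyme gene of myeloid cells, 4.91 against 7.57 FPKM (0.648, 0.514 to 0.822). The neutrophil gene S100a8 had 47 against 2 reads (20.0, 3.18 to 806.2). Of 6 endothelial markers 2 did, with sums of 9.59 and 5.46 FPKM, and Kdr was among them, with a ratio of 2.82 (2.43 to 3.28). Cdh5, which defines endothelium, had 0.0949 and 0.0976 FPKM. Of 5 platelet markers none did, with sums of 1.55 and 1.40 FPKM, and Ppbp and Gp9 were listed at 0 in both libraries. Of 5 myogenic markers 2 reached it, with sums of 18.0 and 14.6 FPKM, and Pax7 and Myog were listed at 0 in both. Adipocyte markers summed to 48.1 FPKM after PRP and 41.2 FPKM in the control, with 3 of 5 above the filter. Fabp4 made up most of both sums (40.7 and 33.6 FPKM). Adipoq (5.49 against 5.22 FPKM) and Plin1 (1.73 against 2.10 FPKM) had intervals that included no change. The part of the lower FAP markers and of the higher Kdr, Tek, Pecam1, Vwf, Cd68 and S100a8 in the differences of the set was not tested.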

How the data were processed

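Total RNA of 2 FAP cultures was sequenced as stranded mRNA libraries. Per the submitters' processing notes, reads were trimmed (fastp 0.23.4), mapped to mm10 (STAR 2.5.3a) and counted with featureCounts. The authors deposited FPKM for 44291 genes in each library. The annotation, the strand setting and the step from counts to FPKM are not given in the sources used here. Groups were taken from the sample titles.

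The members and the gene lists were chosen with earlier results of these data known. Exon lengths and coordinates came from GENCODE M21 (GRCm38), which holds 41492 of the genes. Multiplying FPKM by length gave whole reads, within 0.001, for 9 of the 10 genes. Totals of assigned reads were 40120843 (PRP) and 34139741 (control). Even read numbers prevailed (79.3% and 80.3% of genes with up to 8 reads), so intervals used reads divided by 2. These reads served for depth and intervals only. Genes whose mean FPKM reached 1 were compared on the log2(FPKM + 1) scale, with no test. Genes named are the 10, in each family or pathway list the members changed at least 2-fold or otherwise up to 3 with the largest change, nearest neighbours, and the 3 genes closest to Isg15. Other genes named, among them Ifnb1, Ifng, Ifnar2, Oas2, Ifit2, Ubb, Ufm1 and the cell type markers, are list members picked after their values were seen, as was the comparison with overlapping transcripts. Opposite-strand transcripts and Usp6nl were left out of the USP family. Promoter windows and motif searches were chosen after the values were known, and a search for another element is not reported here. Alternatives were pseudocounts of 0.1 and 5, other filters, rescaling, centring, and thresholds of 1.5-fold and 4-fold. Python 3.11.15, NumPy 2.4.6, pandas 2.3.3, SciPy 1.17.1 and matplotlib 3.10.9 were used, and the procedures were tested on simulated data.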

Additional observations from a re-analysis of the deposited data

How the results depend on the processing

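No paired analysis was possible because there was only 1 library in each group. Isg15 and Usp18 were the genes of the set at least 2-fold higher under every pseudocount, filter, rescaling and centring tried. On the log2(FPKM + 1) scale 4 genes passed a 1.5-fold threshold, with Ube2l6 and Dtx3l added, and at 4-fold only 1, Isg15. Without the pseudocount, the ratios of Herc6 (1.68) and Parp14 (1.54) also lay above 1.5. The median log2 fold change of the set was 0.40 with a pseudocount of 5, and between 0.53 and 0.68 otherwise. No gene of the set changed sign. Among all genes, 379 passed the 2-fold threshold. This count moved to 739 and 113 when the pseudocount was 0.1 and 5, and to 210 under the stricter filter at 5 FPKM. It was 1436 at 1.5-fold and 26 at 4-fold, where the threshold itself sets the count. The cause of the other shifts was not tested. Counting error limits Uba7 and the interferon ligands most, and the spread between cultures is not known for any gene.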
